A study of Homo sapiens with 4 samples.

Results

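The aminoacyl-tRNA synthetases were followed through RNA-seq of RPE1 cells depleted of TOP2B, a DNA topoisomerase that relaxes and untangles DNA. The set was fixed by name as 35 genes of the 60725 in the table. It held 16 for mitochondrial enzymes (symbols ending in 2) and 19 for cytosolic enzymes. TARS3, also a synthetase gene by its symbol, was placed in a related list instead. All 35 had at least 10 reads in at least 2 libraries, like 15356 genes in all, and all were tested. The cells were hTERT-RPE1, an immortalized human retinal pigment epithelial line, and both groups carried the SunTag system. They were grown in DMEM with serum and received 10 nM siRNA, again after 48 h, and were harvested 72 h later on day 5. By the treatment protocol in the sample labels, cells of the TOP2B knockdown group received the Dharmacon smart pool of siRNAs against TOP2B, and those of the control group the Silencer Select Negative Control No. 2 siRNA, with 2 independent replicates of each. The siRNA preparation and the loss of TOP2B split the libraries in the same way and cannot be told apart in these data. In bulk RNA, fewer cells that express a gene and less of its RNA per cell cannot be told apart either.

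Libraries held between 20310259 and 23887013 counted reads, and values are given as CPM, read counts relative to library size with scaling by the TMM method. The knockdown target TOP2B (ENSG00000077097) had 154.9 and 143.5 CPM in the control and 15.3 and 13.3 CPM in the knockdown libraries, a log2(fold change) of -3.38. Of the markers of retinal pigment epithelium, MITF had 870 to 921 and OTX2 252 to 285 reads per library, KRT8 and KRT18 were abundant, and BEST1 and PMEL had 7 to 31 reads. RLBP1 had at most 1 and LRAT at most 5 reads per library, and RPE65 and TYR had 0 in all libraries. Defining markers of blood, liver, muscle, neuronal and other epithelial cells had at most 7 reads per library. Of the endothelial markers, CDH5 had at most 1 read per library. PECAM1 had 24 and 21 reads in the control and 11 and 5 in the knockdown libraries and was not called. Over all genes tested the median log2(fold change) was -0.0029.

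Each synthetase joins an amino acid to its tRNA, using ATP, and so sets which amino acid a codon stands for. Human cells keep separate nuclear genes for most of the cytosolic and mitochondrial enzymes, and the mitochondrial enzymes serve the few proteins of the respiratory chain that are made inside the organelle. KARS1 and GARS1 are exceptions, since both genes encode the cytosolic and the mitochondrial form, and there is no dedicated mitochondrial enzyme for glutamine. Several cytosolic enzymes sit together in a multi-synthetase complex on the scaffold proteins AIMP1, AIMP2 and EEF1E1. Transcription of many cytosolic synthetase genes is known to respond to ATF4, the transcription factor of the amino acid response.

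After TOP2B depletion 5 synthetase mRNAs rose and none of the 35 fell at an adjusted p below 0.05 (edgeR's quasi-likelihood test, Benjamini-Hochberg adjustment over the 15356 genes). The mitochondrial CARS2 and AARS2 and the cytosolic VARS1, QARS1 and MARS1 were the 5, with rises between 1.51-fold and 2.47-fold. Higher calls thus made up 12.5% of the mitochondrial and 15.8% of the cytosolic enzymes, beside 6.66% of all genes tested. Lower calls made up 4.18% of all genes, against 0 of 35 here. With an unadjusted p below 0.05, 9 of the 35 passed, 3 of them lower, beside 4040 of all 15356 genes, 1812 of them lower. DESeq2 also called 0 of the 35 lower. The absence of lower calls depended on the model, however. When edgeR was given replicate as a further term, 3 mitochondrial and 6 cytosolic enzymes were called lower, among 3346 genes in all. Replicate numbers mark no stated batch. Synthetase mRNAs are abundant, and 34 of the 35 had a mean of at least 100 reads, the exception being SARS2. Among the 10893 genes at or above that mean, 8.16% were called higher and 4.95% lower. The difference between the classes was not tested.

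The typical member moved little. The median log2(fold change) was 0.012 over the mitochondrial enzymes, of which 8 of 16 were above 0, and -0.035 over the cytosolic enzymes, of which 6 of 19 were above 0. Taken library by library against the mean of the control libraries, the median shift of log2 CPM of the mitochondrial class was -0.021 and 0.021 in the knockdown libraries and 0.010 and -0.010 in the control libraries. For the cytosolic class it was -0.116 and 0.044 in the knockdown and -0.036 and 0.036 in the control libraries. Without TOP2B knockdown replicate 1 the cytosolic median was 0.048, with 9 of 19 below 0. In neither class did the knockdown libraries stand apart from the control libraries in this median. Both knockdown libraries lay above both control libraries for 7 of the 35 genes, beside 27.7% of all genes tested, and below them for 11, beside 26.6% of all genes.

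**Figure D1:**
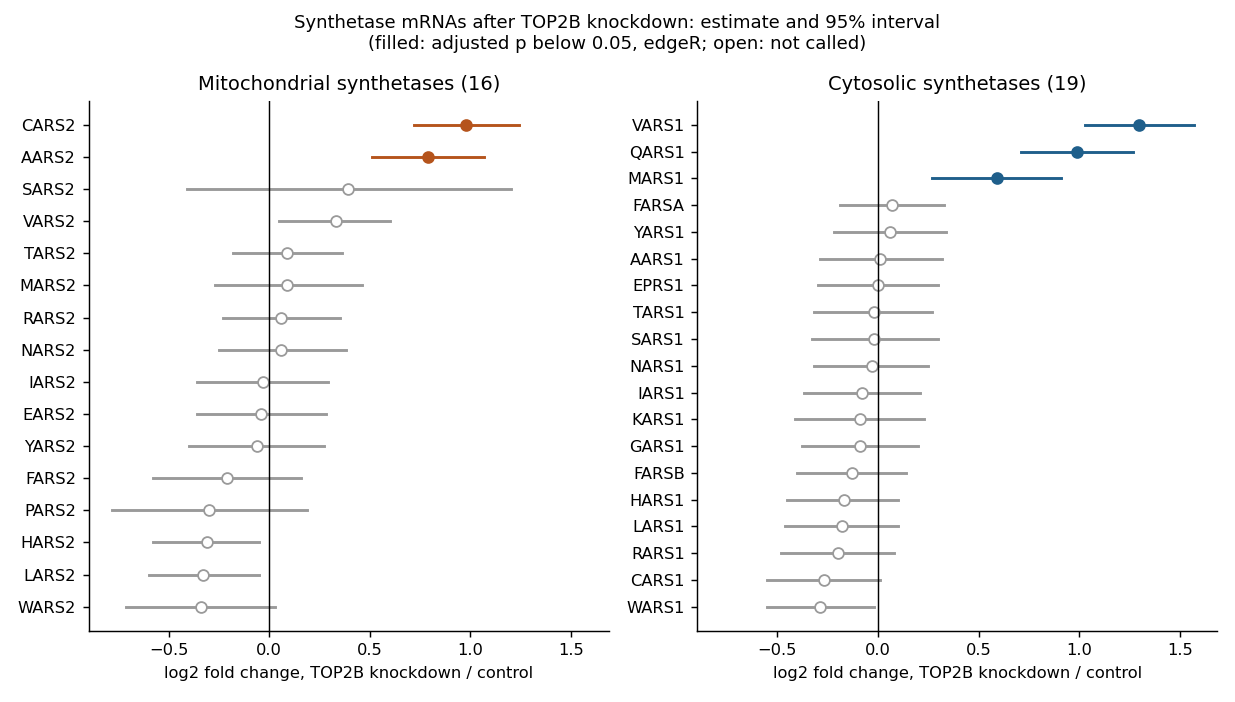
The log2(fold change) of TOP2B knockdown against control is plotted for each of the 16 mitochondrial (left) and 19 cytosolic (right) synthetase genes, with points for the edgeR estimate, bars for its 95% interval and filled points for genes called at an adjusted p below 0.05. CARS2 (0.98), AARS2 (0.79), VARS1 (1.30), QARS1 (0.99) and MARS1 (0.59) stand to the right of 0, while the other 30 estimates lie between -0.34 and 0.39.

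CARS2 (ENSG00000134905, chromosome 13 of GRCh38 from 110641412 to 110713603, minus strand) encodes the mitochondrial cysteinyl-tRNA synthetase, which also makes cysteine persulfides. It had 56.2 and 51.4 CPM in the control libraries and 105.9 and 106.5 CPM in the knockdown libraries, from 1346, 1171, 2245 and 2147 reads. The groups did not overlap, and the knockdown libraries differed from each other by 0.01 on the log2 scale. The mean CPM went from 53.8 ± 3.42 to 106.2 ± 0.383 (SD, n = 2), a log2(fold change) of 0.98 (SE, the standard error, 0.12, adjusted p = 0.00149, edgeR).

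AARS2 (ENSG00000124608, chromosome 6 from 44298731 to 44313347, minus strand) encodes the mitochondrial alanyl-tRNA synthetase, variants of which are a known cause of infantile cardiomyopathy and of a leukoencephalopathy. Its level was 20.7 and 21.8 CPM in the control libraries and 38.2 and 35.1 CPM in the knockdown libraries. Again both knockdown libraries were the high ones. The log2(fold change) was 0.79 (SE 0.13, adjusted p = 0.00478, edgeR), or 1.72-fold. Without any single library the log2(fold change) ranged from 0.92 to 1.05 for CARS2 and from 0.73 to 0.83 for AARS2, and both were called in all 4 such fits.

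VARS1 (ENSG00000204394, chromosome 6 from 31777518 to 31795752, minus strand), the cytosolic valyl-tRNA synthetase, which associates with the elongation factor complex that delivers charged tRNA, had the largest change of the 35. It had 80.5 and 75.9 CPM in the control libraries and 188.5 and 197.7 CPM in the knockdown libraries, from 1927, 1730, 3995 and 3987 reads. Each knockdown library held more than any control library, and by p-value VARS1 ranked 26 of the 15356 genes. The mean CPM went from 78.2 ± 3.23 to 193.1 ± 6.52 (SD, n = 2), a log2(fold change) of 1.30 (SE 0.12, adjusted p = 0.000498, edgeR), or 2.47-fold. None of its exon bases overlap another gene (0%).

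QARS1 (ENSG00000172053, chromosome 3 from 49095932 to 49105130, minus strand), the glutaminyl-tRNA synthetase of the multi-synthetase complex, had 86.9 and 75.2 CPM in the control libraries and 162.0 and 160.1 CPM in the knockdown libraries. The groups did not overlap, and the control libraries were farther apart than the knockdown libraries. Its log2(fold change) was 0.99 (SE 0.13, adjusted p = 0.00175, edgeR), or 1.99-fold. VARS1 ranged from 1.25 to 1.35 and QARS1 from 0.89 to 1.10 in log2(fold change) when a library was left out, with a call in all 4 fits.

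MARS1 (ENSG00000166986, chromosome 12 from 57475445 to 57517569, plus strand), the methionyl-tRNA synthetase of the same complex, charges both the initiator and the elongator tRNA. It had 168.9 and 131.9 CPM in the control libraries and 226.8 and 226.1 CPM in the knockdown libraries. The knockdown libraries were nearly equal, whereas the control libraries differed by 0.36 on the log2 scale, the widest gap between control replicates among the cytosolic enzymes. The log2(fold change) of 0.59 (SE 0.15, adjusted p = 0.0301, edgeR) passed the threshold with all libraries but was kept in fewer fits than the other 4. Without control replicate 2 it was 0.42 (adjusted p = 0.282), and without TOP2B knockdown replicate 1 or 2 it was 0.59 (adjusted p = 0.0601) or 0.58 (adjusted p = 0.0659), so that it stayed called (0.78, adjusted p = 0.0082) only without control replicate 1. MARS1 shares 982 bases with the oppositely oriented DDIT3, and 13.3% of its exon bases overlap other genes. DDIT3 itself lay between 12.7 and 14.4 CPM in the 4 libraries, with a log2(fold change) of 0.02, beside means of 150.4 and 226.5 CPM for MARS1.

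**Figure D2:**
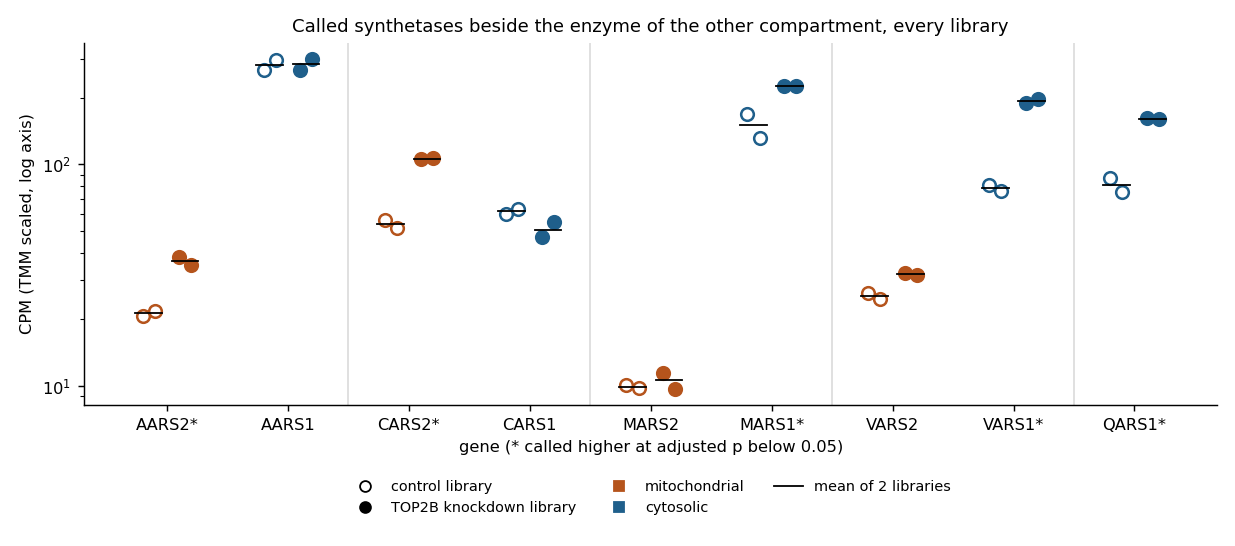
CPM (log axis) in each library is plotted for the called synthetases, marked with an asterisk, beside the enzyme for the same amino acid in the other compartment, with open points for control and filled points for TOP2B knockdown libraries and black bars for the mean of 2 libraries. For VARS1 the points move from 80.5 and 75.9 to 188.5 and 197.7 CPM and for CARS2 from 56.2 and 51.4 to 105.9 and 106.5 CPM, while AARS1 and MARS2 overlap between the groups and CARS1 lies lower in the knockdown.

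The 2 called mitochondrial mRNAs share a short feature of the 3′ untranslated region (UTR) that the selection of genes did not use. The word GCAACC had been picked in an earlier examination of these same libraries as more common in 3′ UTRs of genes that rose, so its presence here is a description and not independent evidence. In the GENCODE v44 canonical transcripts it occurs in 4 of the 16 mitochondrial enzymes (25.0%) and in 1 of the 19 cytosolic enzymes (5.26%), against 23.4% of the 12517 tested genes with an annotated 3′ UTR. Stretches of 3 genes are given 5′ to 3′ with the word in capitals, because they place the word in the 2 called genes and in MARS2, which carries it without a call.
AARS2: tgcccctcccaGCAACCtaagaccagtc
CARS2: attaaagtaagGCAACCaa
MARS2: gggatagctttGCAACCactattgtttt
The word begins at base 627 of the 1816 of the AARS2 3′ UTR, and at base 113 of only 120 in CARS2, near the end of the transcript. MARS2 had a log2(fold change) of 0.09, and none of the 3 other synthetase genes with the word, MARS2 included, was called. The called cytosolic genes have short 3′ UTRs, of 76 bases in VARS1, 97 in QARS1 and 71 in MARS1, and 0 copies in each.

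Among the 14 mitochondrial enzymes that were not called, values lay between -0.34 and 0.39 in log2(fold change). The largest of the positive values belonged to SARS2, the mitochondrial seryl-tRNA synthetase, with 27 and 21 reads in the control and 35 and 21 reads in the knockdown libraries. The groups overlapped, its standard error was 0.36, and 48.2% of its exon bases lie in other genes, so that this value is uncertain. VARS2, for mitochondrial valine, had 26.3 and 24.7 CPM in the control and 32.4 and 31.7 CPM in the knockdown libraries without overlap, a log2(fold change) of 0.33 (adjusted p = 0.121, edgeR). Other genes, taken on both strands, cover 63.0% of its exon bases. How reads over shared bases were counted is not stated, which makes its level uncertain.

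On the negative side, WARS2 (tryptophan) had 14.3 and 16.7 CPM in the control against 10.9 and 13.5 CPM in the knockdown libraries, a log2(fold change) of -0.34 (adjusted p = 0.23, edgeR). LARS2 (leucine), known with HARS2 for Perrault syndrome, had 85.9 and 76.5 CPM against 68.0 and 61.4 CPM, a log2(fold change) of -0.33 (adjusted p = 0.124, edgeR). HARS2 (histidine) had 48.6 and 46.5 CPM against 39.7 and 36.9 CPM, a log2(fold change) of -0.31 (adjusted p = 0.125, edgeR). In all 3 the knockdown libraries were the low ones without overlap, and the 95% intervals of LARS2 (-0.60 to -0.05) and HARS2 (-0.58 to -0.05) lay below 0, but none passed the adjustment over all genes. PARS2 and FARS2 were at -0.30 and -0.21, also without overlap, but their 95% intervals (-0.78 to 0.19 and -0.58 to 0.16) spanned 0. The closest control and knockdown libraries were nearly equal, at 6.317 and 6.275 CPM for PARS2 and 11.27 and 11.26 CPM for FARS2. The log2(fold change) of EARS2, IARS2, YARS2, NARS2, RARS2, MARS2 and TARS2 lay between -0.06 and 0.09. IARS2 was the most abundant of these, with 193.9 and 155.4 CPM in the control and 181.8 and 159.4 CPM in the knockdown libraries.

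The 16 cytosolic enzymes without a call had log2(fold change) values from -0.29 to 0.07, with 13 of them below 0. WARS1, the tryptophanyl enzyme that interferon-gamma is known to raise, had 106.0 and 113.1 CPM in the control and 86.4 and 93.3 CPM in the knockdown libraries, a log2(fold change) of -0.29 (adjusted p = 0.156, edgeR). CARS1 (cysteine) had 59.8 and 62.8 CPM against 46.8 and 54.8 CPM, a log2(fold change) of -0.27 (adjusted p = 0.203, edgeR). RARS1 (arginine) had 191.7 and 198.4 CPM against 160.8 and 179.5 CPM, a log2(fold change) of -0.20 (adjusted p = 0.364, edgeR). Both knockdown libraries were below both control libraries in these 3 and in HARS1, IARS1 and LARS1, whose log2(fold change) values were -0.17, -0.08 and -0.18. The other 10 overlapped between the groups. FARSA and FARSB, which encode the alpha and beta subunits of the phenylalanyl enzyme, were at 0.07 and -0.13, and GARS1 and KARS1, which serve both compartments, were both at -0.09. AARS1, EPRS1 (the fused glutamyl- and prolyl-tRNA synthetase), NARS1, SARS1, TARS1 and YARS1 lay between -0.03 and 0.06.

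Other listed members of the multi-synthetase complex were not called. EPRS1, IARS1, KARS1, LARS1 and RARS1 had log2(fold change) values of -0.00, -0.08, -0.09, -0.18 and -0.20. The 3 scaffold genes were not called either. AIMP1 had 51.9 and 48.2 CPM in the control against 54.9 and 53.8 CPM in the knockdown libraries, and the log2(fold change) of AIMP1, AIMP2 and EEF1E1 was 0.12, -0.02 and -0.12.

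The enzymes of the 2 compartments were set side by side by amino acid. In 17 pairs (EPRS1 stands in the pairs for glutamate and proline, and FARS2 beside both phenylalanine subunits), the log2(fold change) had the same sign in 10, some of them with values close to 0, and in 0 pairs were both enzymes called. The CPM of the mitochondrial mRNA as a percentage of that of the cytosolic mRNA, which is not corrected for length and is read only for its change between libraries, was higher in both knockdown libraries in 4 pairs, lower in both in 4 and overlapping in 9. For cysteine it went from 93.9% and 81.8% in the control to 227.0% and 194.0% in the knockdown libraries, so that the mitochondrial mRNA passed the cytosolic one in CPM. For alanine it went from 7.76% and 7.38% to 14.3% and 11.7%. In the opposite direction, for valine it went from 32.7% and 32.6% to 17.2% and 16%, and for methionine from 5.96% and 7.41% to 5.06% and 4.30%. These are the amino acids of the 4 called enzymes that have a counterpart. The percentage is made from the same CPM values as the calls, so this match is not separate evidence. A count of pairs without overlap over other genes was not made. The remaining pairs without overlap were arginine and asparagine, with the mitochondrial share higher, and proline and the alpha subunit of phenylalanine, with it lower.

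**Figure D3:**
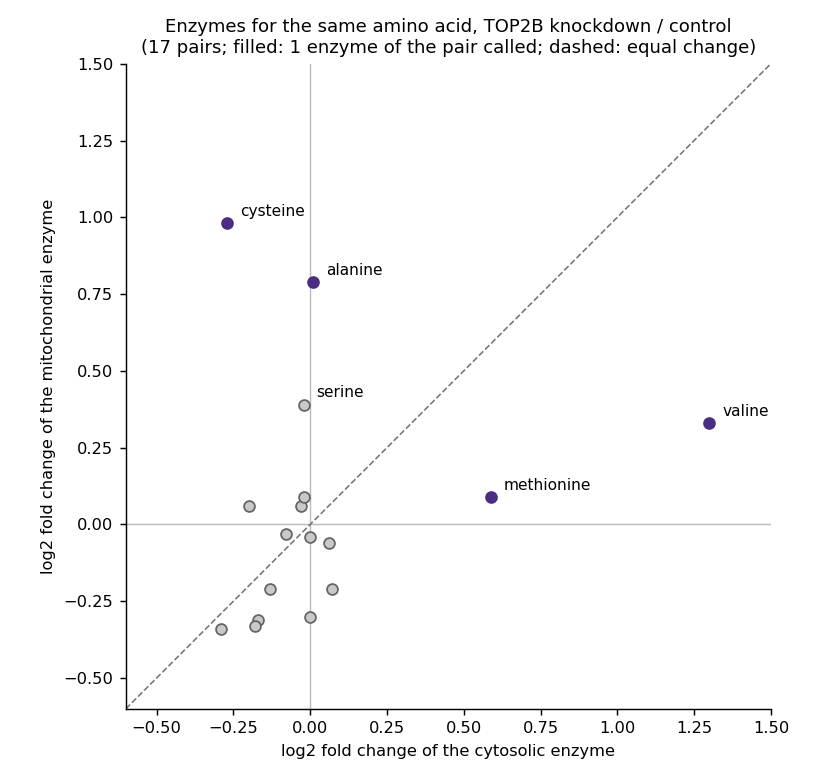
Each point is 1 of the 17 pairs, with the log2(fold change) of the cytosolic enzyme on the horizontal axis and that of the mitochondrial enzyme for the same amino acid on the vertical axis. Cysteine (-0.27, 0.98) and alanine (0.01, 0.79) lie far above the dashed line of equal change, and valine (1.30, 0.33) and methionine (0.59, 0.09) far below it.

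QARS1 has no mitochondrial counterpart. Mitochondria charge the glutamine tRNA with glutamate through EARS2 and then amidate it with the complex of GATB, GATC and QRSL1, while MTFMT formylates the initiator methionine tRNA. EARS2 had 50.4 and 62.7 CPM in the control and 50.2 and 59.8 CPM in the knockdown libraries, which overlap. None of the 4 amidation and formylation genes was called. GATB had 36.4 and 37.6 CPM against 26.4 and 29.7 CPM, a log2(fold change) of -0.40 (adjusted p = 0.0697, edgeR), and MTFMT 9.35 and 11.1 CPM against 13.8 and 13.4 CPM, a log2(fold change) of 0.41 (adjusted p = 0.128, edgeR), both without overlap of the groups. QRSL1 and GATC were at -0.13 and 0.15.

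The mitochondrial enzymes were the less abundant class. Per kb of all annotated exon bases, the control level had a median of 4.04 CPM per kb over the mitochondrial and 17.2 CPM per kb over the cytosolic enzymes. Per kb of the canonical transcript, a length chosen after the data were seen because unions of exons run to 22418 bases in IARS1, the medians were 9.64 and 60.4 CPM per kb. On that second scale the control levels ran from 0.532 CPM per kb for SARS2 to 49.5 for IARS2 among the mitochondrial enzymes, and from 14.6 for FARSB to 105.0 for TARS1 among the cytosolic enzymes. On this scale VARS1 and QARS1 began from the lower part of their class. VARS1 had 19.6 and 18.5 CPM per kb of transcript in the control, above only FARSB in its class, and 45.9 and 48.1 in the knockdown libraries. QARS1 went from 35.5 and 30.7 to 66.1 and 65.4 CPM per kb of transcript. CARS2, at a control mean of 29.3 CPM per kb of transcript, was second to IARS2 among the mitochondrial enzymes and reached 57.8 in the knockdown. AARS2, among the 4 lowest on this scale, went from 4.43 to 7.63. Per kb of all annotated exon bases the positions of CARS2, AARS2 and QARS1 were not kept. There the control means were 5.15 for CARS2 and 4.05 for AARS2, beside the mitochondrial median of 4.04. QARS1 was at 17.2, equal to the cytosolic median, and VARS1 at 13.3.

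**Figure D4:**
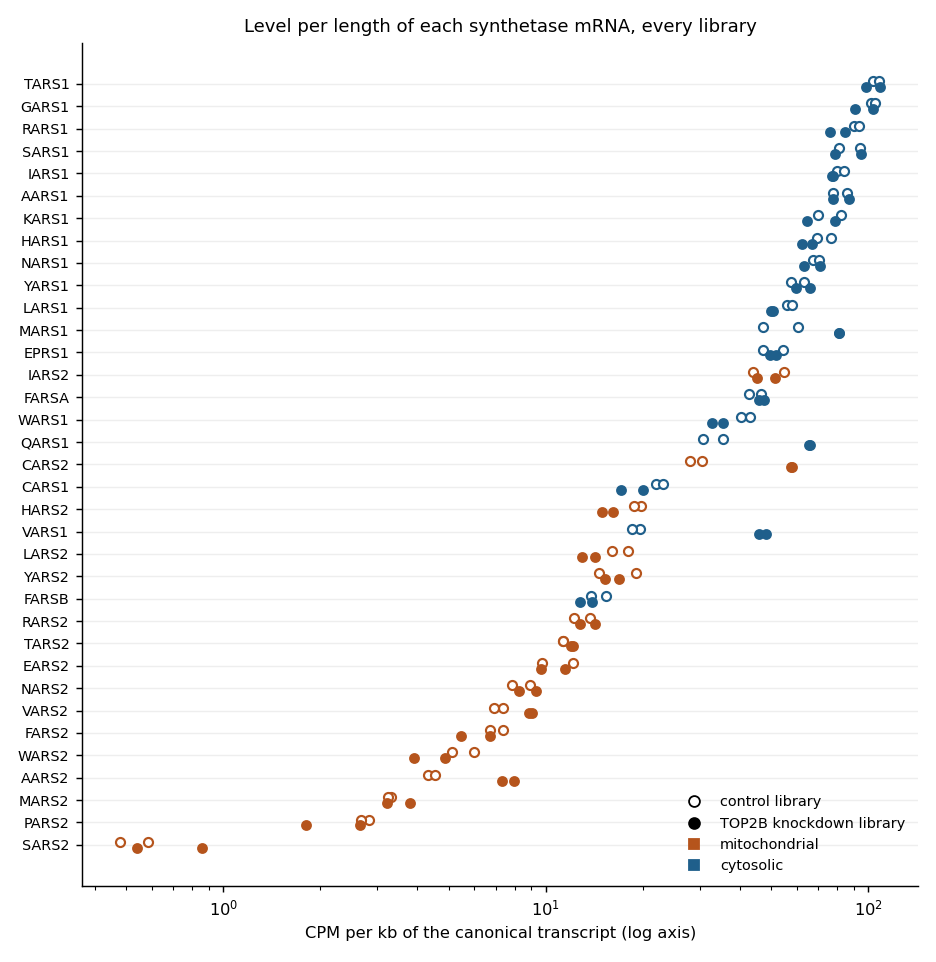
CPM per kb of the canonical transcript (log axis) in every library is plotted for the 35 synthetase genes, ordered by their control mean, with open points for control and filled points for TOP2B knockdown libraries. Cytosolic enzymes fill the upper end and mitochondrial enzymes the lower end, IARS2 (49.5), CARS2 (29.3), HARS2 (19.3), LARS2 (17) and YARS2 (16.8) lie above FARSB (14.6), the lowest cytosolic enzyme, and the called genes show filled points to the right of the open ones.

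Because synthetase genes are known targets of the amino acid response, their promoters were searched on both strands for TGATGCAA, the core of the response element to which ATF4 binds as a dimer with C/EBP proteins. RefSeq promoters (GRCh38.p14, 250 bases before to 50 after the start site) were present for 30 of the 35 genes, without AARS2, VARS2, LARS1, VARS1 and YARS1. The core occurred in 6 of 16 cytosolic and 0 of 14 mitochondrial promoters, against 1.08% of the 27305 genes with a promoter and 0.752% of the 11037 tested genes with one. The 6 stretches are given 5′ to 3′ on the strand of the gene, with the core, read on either strand, in capitals, since the core was found in promoters of cytosolic enzymes and in 0 of the mitochondrial ones.
AARS1, chr16:70289676-70289703, minus: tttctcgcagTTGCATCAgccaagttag
CARS1, chr11:3057408-3057435, minus: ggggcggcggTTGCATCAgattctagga
IARS1, chr9:92293693-92293720, minus: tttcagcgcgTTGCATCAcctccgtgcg
MARS1, chr12:57488054-57488081, plus: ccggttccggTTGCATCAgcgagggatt
NARS1, chr18:57621805-57621832, minus: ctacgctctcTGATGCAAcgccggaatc
TARS1, chr5:33440957-33440984, plus: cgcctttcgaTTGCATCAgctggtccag
In 5 of them the core begins within 15 bases of the start site, and in AARS1 it begins at position -187 from it. Of the 6, MARS1 was called, and the others had log2(fold change) values of 0.01 (AARS1), -0.27 (CARS1), -0.08 (IARS1), -0.03 (NARS1) and -0.02 (TARS1). The median log2(fold change) was -0.028 over the cytosolic genes with the core and -0.089 over those without. Among those without it, 1 was called, QARS1. VARS1 and the other genes without a promoter entry are in neither median. With any base at the sixth position (TGATGNAA), GARS1 and YARS2 were added, and 4.46% of all genes with a promoter held this looser form. Of 22 genes with a promoter from a list of ATF4 and its known targets outside the synthetases, 2 held the exact core and 6 the looser form. A match describes these letters in this window and not a bound site, and a missing match likewise describes only this window.

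Of ATF4 and its known targets outside the synthetases, 7 of 28 tested genes were called higher and 2 lower, with a median log2(fold change) of 0.058. Over all genes tested, 6.66% were called higher and 4.18% lower. SHMT2, which splits serine to glycine in mitochondria, had 88.0 and 99.7 CPM in the control against 220.2 and 251.5 CPM in the knockdown libraries, a log2(fold change) of 1.33 (SE 0.14, adjusted p = 0.000687, edgeR). MTHFD2, of mitochondrial folate metabolism, rose by 0.80, PSPH, the last enzyme of serine synthesis, by 0.77, and SESN2, a leucine sensor, by 0.62 in log2(fold change). ASNS, NUPR1 and PHGDH were also called higher, at 0.56, 0.54 and 0.52. PSAT1, the enzyme before PSPH in serine synthesis, was at 0.06 and not called. DDIT4, an inhibitor of mTORC1, fell by 1.00 and the lipoprotein receptor VLDLR fell by 0.69. ATF4 mRNA had 161.0 and 204.1 CPM in the control and 156.4 and 198.1 CPM in the knockdown libraries, which overlap, with a log2(fold change) of -0.04, and the stress targets TRIB3 and CHAC1 were at -0.25 and -0.54 without a call. Without TOP2B knockdown replicate 2 the list gave 3 higher and 1 lower genes. Of 11 genes of amino acid sensing, GCN1, the activator of the kinase GCN2, was called higher (0.46) and RRAGA, a Rag GTPase upstream of mTORC1, lower (-0.53). GCN1 was called in 0 of the 4 fits that left out a library, and RRAGA was not called without control replicate 2 or TOP2B knockdown replicate 1.

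Other parts of the translation machinery were taken from fixed lists. The 11 tested partners of tRNA charging (TARS3 and tRNA export, processing and editing factors) had 0 calls and a median log2(fold change) of 0.156. TARS3, a synthetase gene by its symbol, was placed in this list and not in the synthetase set. It had 11.4 and 12.4 CPM in the control and 9.34 and 10.3 CPM in the knockdown libraries. Its log2(fold change) was -0.28 (adjusted p = 0.302, edgeR). The 5 tested cytosolic elongation factors had 0 calls and a median log2(fold change) of -0.027. Among 12 mitochondrial translation factors, GFM2, a factor for recycling of the mitochondrial ribosome, was called lower. It had 62.4 and 61.5 CPM in the control and 40.6 and 39.7 CPM in the knockdown libraries, a log2(fold change) of -0.63 (SE 0.11, adjusted p = 0.00878, edgeR). Of 77 mitochondrial ribosomal protein genes, MRPL45 alone was called, with a log2(fold change) of 0.80 that was not called without TOP2B knockdown replicate 2, and 53 of the 77 were below 0, with a median of -0.103 that was 0.014 without control replicate 2. The 13 mRNAs that the mitochondrial enzymes help to translate are encoded by mitochondrial DNA. All 13 had negative values, with a median log2(fold change) of -0.316. Both knockdown libraries lay below both control libraries in 12, beside 26.6% of all genes tested. The 13 values come from the same 4 libraries and are not independent of each other. The 13 also had negative values under every other scaling, filter and test and without any single library. MT-ND3 went from 772.2 and 718.1 to 480.3 and 511.5 CPM and MT-ATP8 from 519.6 and 500.3 to 368.2 and 363.5 CPM, with log2(fold change) values of -0.59 (adjusted p = 0.0291) and -0.48 (adjusted p = 0.0497, edgeR). These were the called 2 of the 13, and 0 of the 13 were called in each of the fits that left out a library, 1 among genes above a mean of 100 reads, 6 by DESeq2 and 4 without the filter on low counts.

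**Figure D5:**
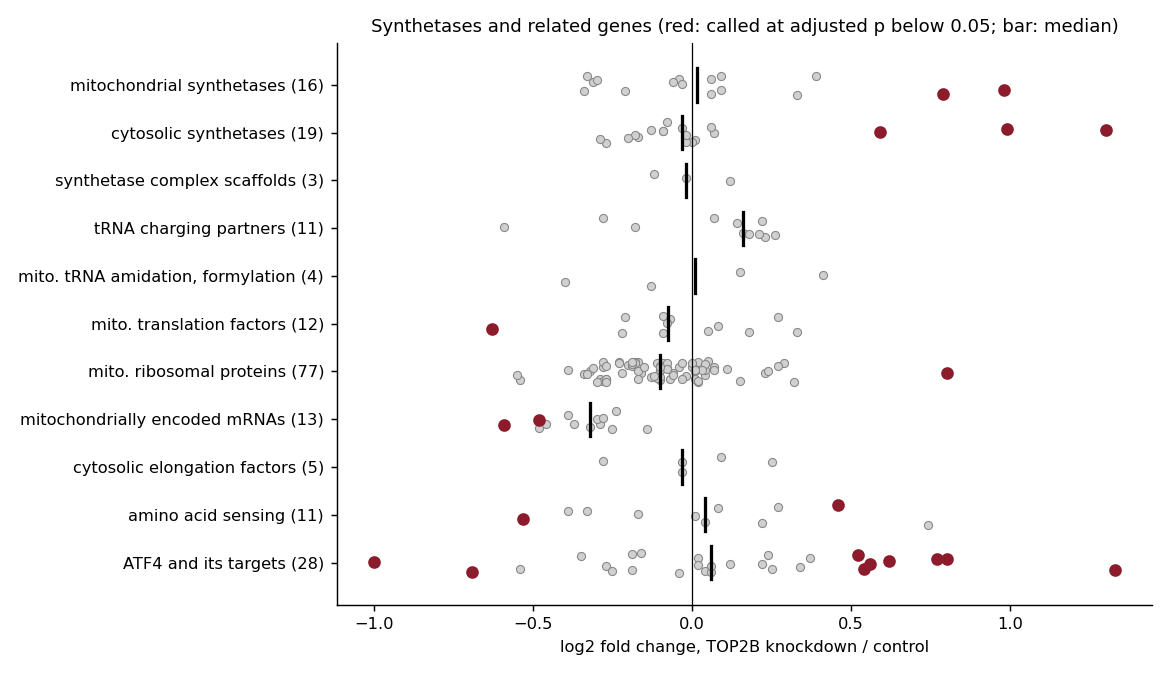
The log2(fold change) of every tested gene is plotted for both synthetase classes and 9 related lists, with the number tested in brackets, black bars for the median and red points for genes called at an adjusted p below 0.05. The called synthetases stand apart to the right of medians near 0 (0.012 and -0.035), and the mitochondrially encoded mRNAs all lie to the left of 0 with a median of -0.316.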

How the data were processed

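The authors checked the single-end 65-bp reads of poly(A) RNA with FastQC 0.11.6, aligned them to GRCh38 with STAR 2.5.4a and counted reads per Gencode v24 gene while mapping. The deposited values are raw counts, and 4 further columns, second copies under the same names, were not used. The columns are labelled as stranded and paired-end, whereas the methods and labels give single-end reads and the TruSeq RNA LT kit. Whether counting used strand is not stated, so the overlap of exon bases with other genes was computed. A gene was tested if 2 or more libraries held 10 or more reads, with edgeR 4.0.16 (R 4.3.3, glmQLFit and glmQLFTest, TMM, condition as the only term), with Benjamini-Hochberg adjustment over all genes and calls at an adjusted p below 0.05. The common dispersion was 0.0117, and 1 CPM rests on 20.2 to 24.0 reads. Scripts were tested on simulated data. The stretches around the word in the other genes that hold it are not reported here.

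Symbols, positions, lengths and 3′ UTRs came from GENCODE v44, which held 98.9% of the tested genes. The members and lists were chosen with earlier results of these data known. Values in all libraries are given for called members and, in each class, the 3 highest and 3 lowest, and called genes are named from each related list (at most 4 a direction, by smallest p). DDIT3, ATF4 and genes of related lists without a call were named after their values were seen. So were ASNS, NUPR1 and PHGDH, which go beyond that limit. DESeq2 1.42.0, other scalings and filters, a replicate block and fits without each library were the alternatives.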

Additional observations from a re-analysis of the deposited data

How the results depend on the processing

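CARS2, AARS2, VARS1, QARS1 and MARS1 were called higher under all 6 changes of scaling, filter, test and block, and all but MARS1 also in the 4 fits without a library. In those fits the lone library of a group is assumed to vary like the other group. The median log2 fold change of the mitochondrial enzymes was -0.029 above a mean of 100 reads and ranged from -0.039 to 0.108 without a library, and that of the cytosolic enzymes from -0.13 to 0.05, so that neither sign was stable. Without the filter 985 genes were called lower in all. Per kb of the canonical transcript the median control levels were 9.64 and 60.4 CPM per kb.

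The replicate numbers are shared by only 2 pairs and mark no stated batch, although deviations of same-numbered libraries correlated (0.609 over 13327 genes, which are not independent). With the replicate number as a block, 3 mitochondrial and 6 cytosolic enzymes were called lower and 3440 and 3346 genes were called higher and lower in all. The enzymes added were HARS2, LARS2, WARS2, CARS1, FARSB, HARS1, LARS1, RARS1 and WARS1, and VARS2 was added as higher. Under the block the mitochondrially encoded mRNAs had 13 lower calls, the mitochondrial ribosomal proteins 24 lower and 6 higher, the tRNA charging partners 3 lower and 5 higher, and the ATF4 list 7 lower and 12 higher.

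Signs of values near 0 turned. AARS1 was at -0.004 with DESeq2 and EPRS1 at 0.001 above a mean of 100 reads. Without a library the log2 fold change ranged from -0.085 to 0.094 for AARS1, -0.189 to 0.125 for EARS2, -0.103 to 0.104 for EPRS1, -0.185 to 0.135 for IARS2, -0.252 to 0.050 for KARS1, -0.025 to 0.194 for MARS2, -0.132 to 0.048 for NARS1, -0.044 to 0.162 for NARS2, -0.034 to 0.148 for RARS2, -0.169 to 0.113 for SARS1, -0.115 to 0.058 for TARS1, -0.029 to 0.13 for YARS1 and -0.243 to 0.140 for YARS2. The cause was not tested. The standard error of the members had a median of 0.131 on the log2 scale, which limits the changes that 2 libraries a group can show.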

Other observations

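Other short motifs were searched in the same RefSeq promoters. The ETS motif CCGGAAG was found in 7 of 14 mitochondrial and 9 of 16 cytosolic enzymes, against 21.7% of the 11037 tested genes with a promoter. The NRF1 motif GCGCANGCG was found in 3 mitochondrial (IARS2, MARS2 and PARS2) and 3 cytosolic promoters (FARSB, SARS1 and TARS1), against 16.8%, and the E-box CACGTG in CARS2, EARS2, MARS2 and IARS1, against 12.3%. CARS2, called higher, held the ETS motif and the E-box, while QARS1 and MARS1 held none of these 3. These are counts of letters and were not tested against the fold changes.

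Some synthetase genes are neighbours. HARS1 and HARS2 lie head to head on chromosome 5 and share 108 bases, and their log2 fold changes were -0.17 and -0.31. EPRS1 and IARS2 lie 47.6 kb apart on chromosome 1, also on opposite strands, and were at -0.00 and -0.03. VARS2 and VARS1 lie 851 kb apart on chromosome 6, at 0.33 and 1.30.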
